A study of Mus musculus with 7 samples.

Results

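The collagen genes of the mouse were followed in cardiac neural crest cells with and without the chromatin remodeller Chd7. A gene was counted as a collagen when its symbol had the form of a numbered collagen chain, such as Col1a1, and 44 of the 19144 symbols in the deposited table met this rule. Of these, 24 had a mean of at least 1 FPKM over all libraries and entered the test, as did 11039 genes in all, and the other 20 lay below that level. FPKM is the number of reads on a gene scaled for gene length and for the library total, so levels can be compared between genes. RNA came from sorted cells that carried green fluorescent protein, taken at E10.5 from pharyngeal arches 3 to 6. The wild-type group held 4 libraries from embryos labelled Wnt1-Cre2, Chd7 +/+ and mTmG, and the deletion group held 3 libraries from embryos labelled Wnt1-Cre2, Chd7 loxp/loxp and mTmG. Both groups therefore carried the recombinase and the reporter. Wnt1-Cre2 is active in the neural crest lineage and switches the mTmG reporter to green fluorescence, so the sorted cells are a mixture of crest cells and their descendants, and Chd7 is removed in that lineage. The labels name fathers with 1 floxed Chd7 copy and mothers with floxed Chd7 on both chromosomes, a cross that would leave at least 1 floxed copy in every embryo, so the controls were taken as they are labelled. Wild-type libraries are numbered 1, 2, 3 and 4 and deletion libraries 1, 3 and 4. No litter, date or number of embryos is named, so the p-values speak only of how these libraries scatter, some of which may be technical.

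Collagens are secreted or membrane-bound proteins whose chains wind around each other into a stiff helix, and each type is defined by the genes that supply its chains. Fibrillar collagens form the load-bearing fibres of connective tissue and vessel walls, collagen IV builds the mesh of basement membranes, and FACIT collagens (fibril-associated collagens with interrupted helices) sit on the surface of fibres. Crest cells of the posterior arches migrate along matrix and give rise to the mesenchyme and smooth muscle of the great arteries, to parts of the outflow septum, and to glia and neurons. Before secretion, chains are hydroxylated, folded and trimmed by dedicated enzymes, and after secretion they are crosslinked, bound by receptors and cut by proteases.

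Chd7 (chromosome 4, 8690406 to 8867659) was lower in every deletion library, with a log2 fold change of -0.80 (SE 0.0624, limma adjusted p = 0.00266). It measured 14.0, 13.9, 14.6 and 14.3 FPKM in wild type 1 to 4, and 7.5, 7.72 and 7.91 FPKM in deletion 1, 3 and 4. The groups did not overlap, and the deletion mean was 54.3% of the wild-type mean (exact two-sided permutation test, p = 0.0286, the smallest p these 7 libraries allow). The table does not show which part of the gene these reads come from. The summed FPKM of a library ranged from 170809.1 to 209559.7, and relative sequencing depth, taken from whole-number steps among low values, from 0.865 to 1.29 times that of wild type 1. The first principal component of the tested genes held 60.45% of the variance and separated the libraries numbered 1 and 2 from those numbered 3 and 4, in both genotypes. The second held 16.54% and separated the genotypes. Neural crest and mesenchyme markers were present in all libraries, in keeping with their label. The summed FPKM of 4 neural crest and glial markers (Sox10, Foxd3, Erbb3 and Ngfr) was 69.0 to 77.7 in the wild type and 109 to 116 in the deletion, and Sox10, Foxd3 and Erbb3 rose (limma). That of 5 arch mesenchyme markers (Prrx1, Twist1, Pdgfra, Dlx5 and Dlx6) was 71.7 to 102 in the wild type and 40.6 to 64.7 in the deletion, with 0 of 5 genes called and 5 of 5 log2 fold changes below 0. In the same limma fit, 0.408% of all genes tested were called higher and 0.48% lower, and 7225 of 11039 were below 0. Prrx1, Twist1 and Pdgfra were called lower in a fit with the library number as a block, where 2.27% of all genes were. Markers of other tissues that could enter the sort were low, with summed values of at most 3.77 FPKM for endothelium, 3.58 FPKM for cardiac muscle, 1.38 FPKM for macrophages, 6.4 FPKM for blood and 11.7 FPKM for epithelium. Smooth muscle markers summed to between 29.4 and 48.9 FPKM and neuronal markers to between 153 and 283 FPKM, with both groups overlapping.

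Wild-type cells expressed chiefly fibrillar collagens. Col3a1, the chain of collagen III in elastic tissue and vessel walls, had the highest mean of all 44 collagens, 75.3 ± 8.06 FPKM (SD, n = 4). Col1a2 and Col1a1, the chains of collagen I, had 47.0 ± 2.11 and 26.4 ± 1.41 FPKM (SD, n = 4). Col2a1, the chain of the main cartilage fibre, came between them with 36.4 ± 1.93 FPKM (SD, n = 4). Col26a1, a secreted protein with short collagen stretches, followed Col2a1 with 28.4 ± 3.05 FPKM (SD, n = 4). Neighbours in the order Col26a1, Col1a1, Col5a1, Col4a1 and Col18a1 overlapped between libraries, so that the order of neighbours is not larger than the spread, although Col18a1 lay below Col26a1, Col1a1 and Col5a1 without overlap. The values of Col3a1, Col1a2 and Col2a1 did not overlap with each other or with any lower collagen in the wild type. Fibrillar chains together made up 64.3% to 65.4% of all collagen FPKM in the wild type, where the 44 genes summed to between 333 and 381 FPKM.

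**Figure D1:**
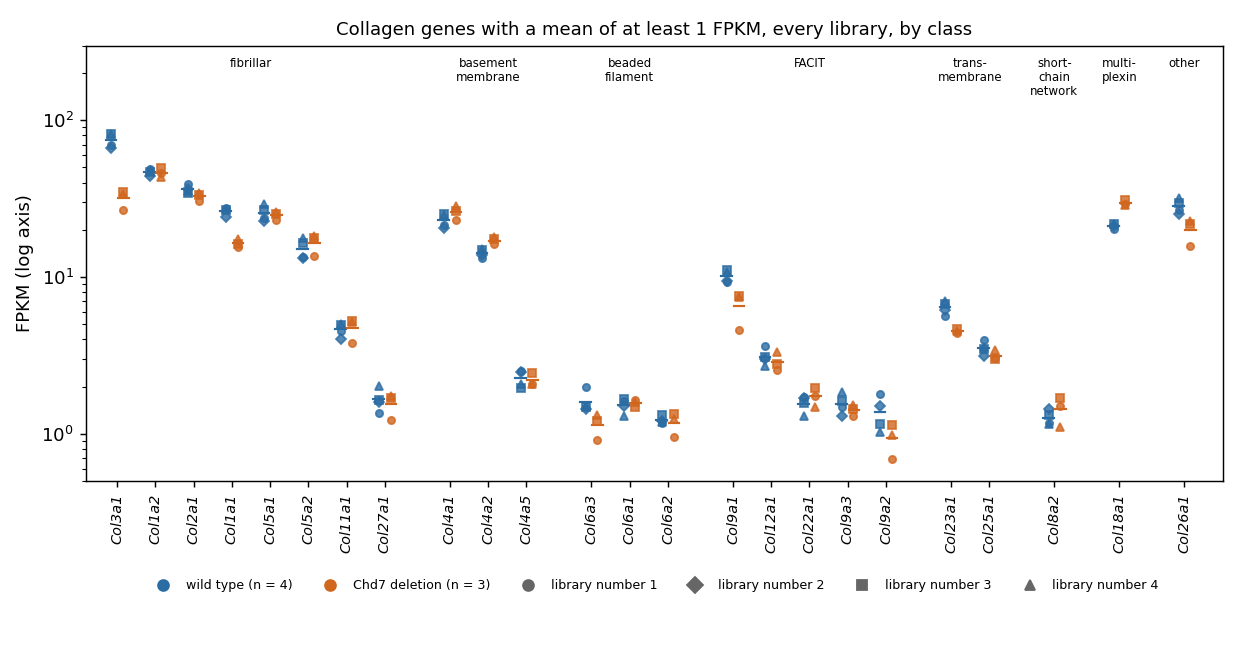
FPKM of the 24 tested collagen genes on a log axis, by class, with 1 point for each library and a dash at the mean of each group (4 wild type, 3 Chd7 deletion). Col3a1 and Col1a1 lie lower in all deletion libraries and Col18a1 higher, while the points of Col1a2 intermingle.

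The presence of Col2a1 was set against cartilage markers, since this gene is best known from that tissue. Acan, the main cartilage proteoglycan, was at most 0.0581 FPKM in any library, and Matn1 and Snorc were at 0 in every wild-type library. Cnmd was at most 0.898 FPKM. Matn4, a matrix adaptor protein, was at 0.0953 to 0.137 FPKM in the wild type and 0.277 to 0.402 FPKM in the deletion, without overlap, and was called higher by limma only when the filter on low values was dropped (adjusted p = 0.0344), since it lies below that filter. Sox9, the crest and cartilage transcription factor that drives Col2a1, was at 14.0 to 16.0 FPKM in the wild type and 11.6 to 13.6 FPKM in the deletion. The 7 cartilage markers summed to between 17.1 and 21.1 FPKM in the wild type and between 15.2 and 16.2 FPKM in the deletion, most of it Sox9, and only Sox9 and Hapln1 passed the filter on low values. Hapln1, a link protein of cartilage matrix, was at 1.58 to 4.68 FPKM in the wild type and 0.996 to 2.7 FPKM in the deletion, and was called lower with the block of library numbers (limma adjusted p = 0.0279) and not without it (0.933). Of the 7, Acan, Matn1 and Snorc were thus at or near 0 beside more than 30 FPKM of Col2a1, and Sox9, Hapln1, Cnmd and Matn4 were measured.

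Col3a1 and Col1a1 fell and Col18a1 rose after loss of Chd7, and no other collagen passed in the plain fit, which used all 7 libraries with no block, covariate or rescaling. This is 2 of 24 tested collagens lower and 1 higher at an adjusted p under 0.05 (limma, Benjamini-Hochberg over all genes), where 0.888% of all genes tested were called, 0.48% lower and 0.408% higher. The median log2 fold change of the 24 collagens was -0.05 on the log2(FPKM + 1) scale, and that of all genes tested was -0.04. Of the 24, 16 had a log2 fold change below 0 and 8 above, and of all 11039 genes 7225 were below 0, a similar share. In the bulk RNA of a sort, fewer cells of a type and less RNA per cell cannot be told apart.

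Libraries with the same number deviated together from their group means, as did others within the number sets, 1 and 2 or 3 and 4. The fit was repeated with the library number as a replicate block. No deletion library is numbered 2, so wild type 2 adds nothing to the blocked difference, which rests on numbers 1, 3 and 4. With that block 5 collagens were lower, Col3a1, Col1a1, Col9a1, Col23a1 and Col26a1, and 1 was higher, Col18a1, where 3.32% of all genes were called, 2.27% lower and 1.04% higher. The same 6 genes passed when only the libraries numbered 3 and 4 were compared, again 5 lower and 1 higher. There 1.24% of all genes were called, 0.77% lower and 0.471% higher. These libraries are also part of the blocked fit, so its calls and these are not independent. Without a model, the libraries of the groups did not overlap for 7 collagens that were lower in the deletion, against 6.17% of all genes tested, and for 2 that were higher, against 3%. These 9 are the 6 genes called with the block together with Col2a1, Col6a3 and Col4a2.

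**Figure D2:**
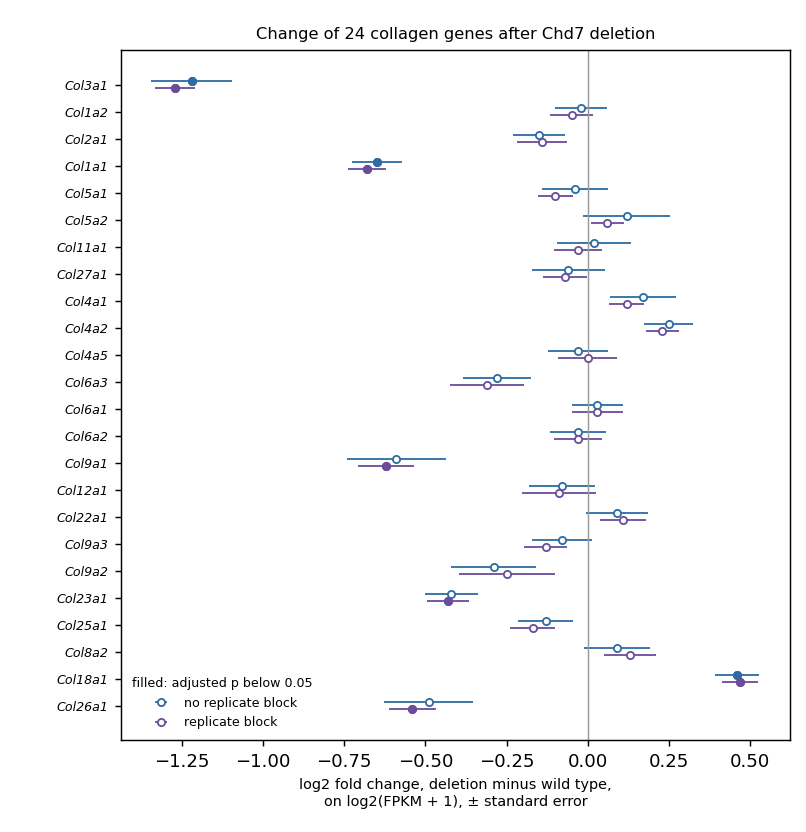
Deletion minus wild type for each of the 24 tested collagens, as log2 fold change of FPKM + 1, with its standard error. Values are from limma without and with the replicate block (7 libraries, of which wild type 2 adds nothing to the blocked difference). Filled points have an adjusted p under 0.05, which Col3a1, Col1a1 and Col18a1 reach in both fits and Col9a1, Col23a1 and Col26a1 with the block.

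Among the fibrillar collagens, Col3a1 showed the largest change of all 24 tested collagens. Col3a1 lies on chromosome 1 at 45311538 to 45349706, plus strand (GRCm38). It measured 70.0, 66.8, 82.3 and 82.0 FPKM in wild type 1 to 4. In deletion 1, 3 and 4 it measured 26.7, 34.8 and 34.1 FPKM. Every deletion library was well under the lowest wild-type library, and the mean went from 75.3 ± 8.06 (SD, n = 4) to 31.8 ± 4.51 FPKM (SD, n = 3), 2.36-fold lower. The log2 fold change was -1.22 (SE 0.124, limma adjusted p = 0.0111), and over 19 alternative settings the adjusted p ranged from 1.27e-05 to 0.058. Leaving out deletion 4 (adjusted p = 0.058) or wild type 3 (adjusted p = 0.0514) ended the call. The arch mesenchyme markers were lower in the same libraries (46.7%, 64.1% and 74.5% of the wild-type mean in deletion 1, 3 and 4), as Col3a1 was, and their part in the result was not tested.

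Col1a1, which supplies the more abundant chain of the collagen I molecule, also fell. It lies on chromosome 11 at 94936224 to 94953042, plus strand (GRCm38). It measured 27.5, 24.3, 26.7 and 27.0 FPKM in wild type 1 to 4 and 15.5, 16.3 and 17.6 FPKM in deletion 1, 3 and 4. The groups were far apart compared with the spread within each, and the mean was 1.6-fold lower, 16.5 ± 1.05 (SD, n = 3) against 26.4 ± 1.41 FPKM (SD, n = 4). The log2 fold change was -0.65 (SE 0.077, limma adjusted p = 0.0111), and over 19 alternatives the adjusted p ranged from 0.00068 to 0.0671. The call was lost without deletion 3 (adjusted p = 0.0671), deletion 4 (0.0609) or wild type 3 (0.06).

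Col1a2, the partner chain of Col1a1 in collagen I, was not called. Col1a2 (chromosome 6, 4504814 to 4541544, plus strand) measured 48.9, 44.0, 47.1 and 48.0 FPKM in wild type 1 to 4 and 46.0, 49.3 and 43.4 FPKM in deletion 1, 3 and 4. These values overlapped fully, with a log2 fold change of -0.02 (SE 0.0797, limma adjusted p = 0.979). The ratio of Col1a1 to Col1a2 FPKM was 0.562, 0.552, 0.567 and 0.563 in wild type 1 to 4, and 0.336, 0.332 and 0.405 in deletion 1, 3 and 4. It was nearly constant among wild-type libraries of both number sets and lower in each deletion library. A ratio within a library does not move with the scaling of that library.

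Other fibrillar chains were measured close to their wild-type level. Col2a1 (chromosome 15, 97975602 to 98004695, minus strand) measured 39.0, 36.6, 34.6 and 35.4 FPKM in wild type 1 to 4 and 30.6, 33.2 and 34.5 FPKM in deletion 1, 3 and 4. Its groups just failed to overlap, and the log2 fold change of -0.15 did not pass the test (SE 0.079, limma adjusted p = 0.819). Col5a1, the chain of collagen V that seeds thin fibres, had a mean of 25.6 ± 3.0 FPKM in the wild type (SD, n = 4) and 24.8 ± 1.56 FPKM in the deletion (SD, n = 3). Col5a2, which pairs with Col5a1, lies beside Col3a1 on chromosome 1 at 45374321 to 45503282, on the minus strand, so that the ends of both genes face each other. It measured 13.5, 13.3, 16.4 and 17.7 FPKM in wild type 1 to 4 and 13.7, 17.7 and 18.3 FPKM in deletion 1, 3 and 4. The neighbour of Col3a1 thus overlapped between the groups, with a log2 fold change of 0.12 (limma adjusted p = 0.952), and the Col3a1 to Col5a2 ratio went from 4.63 to 5.2 in the wild type to 1.86 to 1.96 in the deletion. Col11a1, a chain of the fibre core in cartilage, averaged 4.63 and 4.73 FPKM, and Col27a1, a cartilage-associated fibrillar chain, 1.66 and 1.55 FPKM, in wild type and deletion.

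**Figure D3:**
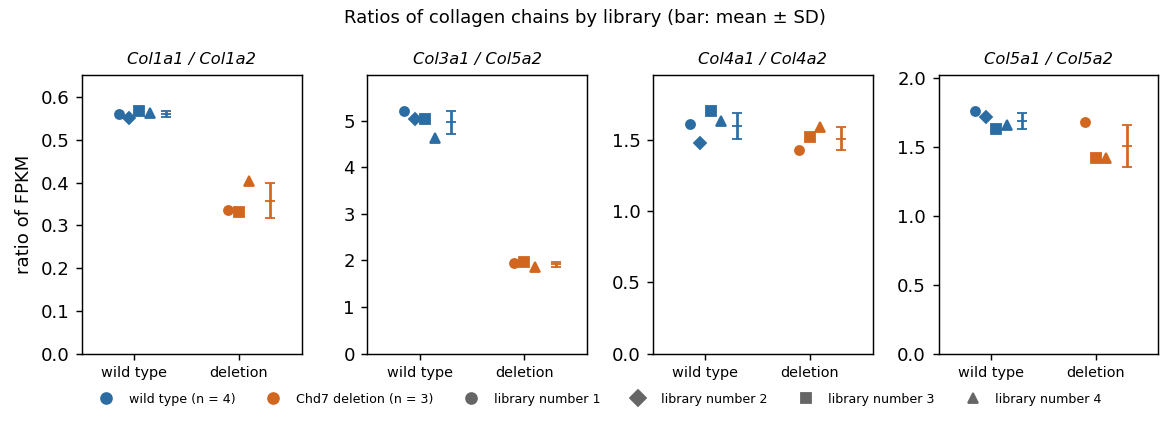
Ratio of the FPKM of collagen chains in each library, with the mean and SD of each group beside the points (4 wild type, 3 Chd7 deletion). Col1a1 over Col1a2 and Col3a1 over Col5a2 are lower in each deletion library, whereas Col4a1 over Col4a2 and Col5a1 over Col5a2 overlap between the groups.

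The sequence before the start of a gene is where general transcription factors assemble. For 3 of the chains that were called in either fit, Col3a1, Col18a1 and Col23a1, 1 start each is shown. The letters are RefSeq sequence of GRCm38.p6, read 5′ to 3′ on the strand of the gene and ending at or before its first annotated base. Capitals mark the TATA box letters TATAAA, the CAAT box letters written CCAAT and the GC box letters written GGGCGG, or their reverse complements. The windows are chr1:45311288-45311537 on the plus strand for Col3a1, chr10:77166549-77166780 on the minus strand for Col18a1, and chr11:51289670-51289919 on the plus strand for Col23a1.
Col3a1: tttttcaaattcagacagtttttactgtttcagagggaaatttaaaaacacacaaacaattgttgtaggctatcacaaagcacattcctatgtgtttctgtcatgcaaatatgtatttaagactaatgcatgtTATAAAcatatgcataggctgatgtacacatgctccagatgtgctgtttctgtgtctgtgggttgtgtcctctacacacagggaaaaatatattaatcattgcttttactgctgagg
Col18a1: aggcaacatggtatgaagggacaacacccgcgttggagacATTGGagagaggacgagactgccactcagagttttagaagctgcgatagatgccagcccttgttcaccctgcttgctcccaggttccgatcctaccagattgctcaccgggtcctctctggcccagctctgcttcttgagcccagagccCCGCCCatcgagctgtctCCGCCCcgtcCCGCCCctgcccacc
Col23a1: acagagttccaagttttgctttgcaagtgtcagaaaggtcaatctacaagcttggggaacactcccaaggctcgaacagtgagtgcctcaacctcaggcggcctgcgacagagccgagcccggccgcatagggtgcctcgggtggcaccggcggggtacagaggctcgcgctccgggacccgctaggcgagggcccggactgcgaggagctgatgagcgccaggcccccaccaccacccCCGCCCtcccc
The Col3a1 window held a TATAAA box that begins 117 bases before the start, no CCAAT and no GGGCGG, and 35.2% G or C. TATAAA stood in 12.4% of all 32851 RefSeq promoter windows, whose median G or C content was 52.4% with quartiles of 45.2% and 61.2%. Over their full 250 bases, the Col18a1 window, of which the 18 bases nearest the gene are not printed, and the Col23a1 window were richer in G and C, at 62.0% and 66.0%, with no TATAAA and with 3 and 1 GGGCGG boxes, a motif found in 32.7% of all windows. The Col3a1 window also held AACAAT, the letters of a SOX core motif, on both strands at overlapping positions, and 9.42% of all windows hold it on either strand. A match is a description of letters only. Another Col18a1 window (chr10:77113706-77113955, minus strand) is not printed, and it had 57.6% G or C and none of the 3 boxes marked by capitals. Col9a1, called with the block, had windows at 43.6% and 56.0% G or C that are not printed either. The former held none of the boxes and the latter 1. A window was available for 35 of the 44 collagens, and Col1a1, Col2a1, Col5a2 and Col26a1 were among those without one.

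Collagen IV chains of the basement membrane were measured at or somewhat above the wild-type level and did not pass the test. Col4a1 and Col4a2, the chains of the common collagen IV mesh, lie head to head on chromosome 8 (11198423 to 11312826, minus strand, and 11312805 to 11449287, plus strand). Col4a1 measured 21.4, 20.6, 25.2 and 24.8 FPKM in wild type 1 to 4 and 23.2, 26.3 and 28.3 FPKM in deletion 1, 3 and 4. Col4a2 measured 13.3, 13.9, 14.8 and 15.2 FPKM in wild type 1 to 4 and 16.2, 17.4 and 17.9 FPKM in deletion 1, 3 and 4. Only Col4a2 had groups that did not overlap, and neither passed the test, with log2 fold changes of 0.17 (limma adjusted p = 0.89) and 0.25 (limma adjusted p = 0.32). Col4a2 was called with median-ratio scaling (adjusted p = 0.0492) and with the library set as a covariate (adjusted p = 0.024), and its range over 19 alternatives was 0.024 to 0.671. The ratio of Col4a1 to Col4a2 was 1.48 to 1.7 in the wild type and 1.43 to 1.59 in the deletion, overlapping between the groups. Col4a5, which belongs to the collagen IV chains of specialised basement membranes, averaged 2.27 and 2.2 FPKM.

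Col18a1, a heparan sulfate proteoglycan of basement membranes whose end fragment is endostatin, rose. It lies on chromosome 10 at 77052178 to 77166548, minus strand (GRCm38). It measured 20.3, 21.3, 21.7 and 21.8 FPKM in wild type 1 to 4 and 29.3, 31.2 and 28.7 FPKM in deletion 1, 3 and 4. The wild-type libraries lay within a narrow band and every deletion library above it, 1.4-fold higher by mean (29.7 ± 1.3, SD, n = 3, against 21.3 ± 0.698 FPKM, SD, n = 4). The log2 fold change was 0.46 (SE 0.0688, limma adjusted p = 0.0235), with an adjusted p between 0.00163 and 0.12 over 19 alternatives. The call held in only 1 of 7 fits that left out a library, the one without deletion 1 (adjusted p = 0.0402). It was lost without deletion 3 (0.12), deletion 4 (0.093), wild type 1 (0.102), wild type 2 (0.0836), wild type 3 (0.109) or wild type 4 (0.0609). Slc19a1, a folate carrier gene that overlaps Col18a1 on the other strand, was at 4.7 ± 0.514 FPKM (SD, n = 4) and 4.79 ± 0.41 FPKM (SD, n = 3), with a log2 fold change of 0.03. The neural crest and glial markers were higher in the same libraries (150%, 149% and 158% of the wild-type mean in deletion 1, 3 and 4), and their part in the result was not tested. Col15a1, the related multiplexin, lay under the filter at 0.134 and 0.151 FPKM.

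The FACIT class was carried by Col9a1, a chain of collagen IX that coats collagen II fibres in cartilage. Col9a1 (chromosome 1, 24177610 to 24252684, plus strand) measured 9.25, 9.49, 11.1 and 10.8 FPKM in wild type 1 to 4 and 4.62, 7.6 and 7.42 FPKM in deletion 1, 3 and 4. The groups did not overlap, deletion 1 was the lowest, and the mean was 1.55-fold lower (log2 fold change -0.59, SE 0.152). The call depended on the model, with a limma adjusted p of 0.195 without the block, 0.0216 with it and 0.0226 for the libraries numbered 3 and 4 alone, and between 0.00333 and 0.542 across 19 alternatives. The partner chains Col9a2 and Col9a3 were lower in level, at 1.37 and 1.56 FPKM in the wild type, and had log2 fold changes of -0.29 and -0.08 that did not pass. Col12a1, which decorates fibres of tendon and dense tissue, averaged 3.11 and 2.89 FPKM, and Col22a1, a chain of tissue junctions, 1.56 and 1.73 FPKM, in wild type and deletion. The Col2a1 to Col9a1 ratio was 3.1 to 4.22 in the wild type and 4.37 to 6.61 in the deletion, without overlap.

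Transmembrane collagens span the cell membrane and can be shed. Col23a1 (chromosome 11, 51289920 to 51583918, plus strand) measured 5.68, 6.19, 6.77 and 7.02 FPKM in wild type 1 to 4 and 4.39, 4.65 and 4.55 FPKM in deletion 1, 3 and 4. The deletion libraries were close together and all below the wild type, with a log2 fold change of -0.42 (SE 0.0815). The limma adjusted p was 0.0709 without the block, 0.0241 with it and 0.0285 for the libraries numbered 3 and 4 alone, and 0.00401 to 0.285 over 19 alternatives. Col23a1 was also called with library weights (adjusted p = 0.016) and with median-ratio scaling (adjusted p = 0.0322). Col25a1, another transmembrane chain, averaged 3.54 ± 0.341 FPKM in the wild type (SD, n = 4) and 3.15 ± 0.218 FPKM in the deletion (SD, n = 3).

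Col26a1 (chromosome 5, 136741759 to 136883209, minus strand) measured 26.7, 25.1, 29.8 and 31.9 FPKM in wild type 1 to 4 and 15.7, 21.7 and 22.9 FPKM in deletion 1, 3 and 4. All deletion libraries were below all wild-type libraries, with deletion 1 the lowest. Its log2 fold change was -0.49 (SE 0.138), with a limma adjusted p of 0.247 without the block, 0.0197 with it and 0.0328 for the libraries numbered 3 and 4 alone. Over 19 alternatives this p ranged from 0.00263 to 0.653.

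The beaded filament collagens, the chains of collagen VI that surround cells, were near the filter. Col6a1 averaged 1.52 and 1.58 FPKM and Col6a2 1.22 and 1.18 FPKM in wild type and deletion. Col6a3 measured 1.98, 1.44, 1.49 and 1.5 FPKM in wild type 1 to 4 and 0.908, 1.2 and 1.32 FPKM in deletion 1, 3 and 4. Only Col6a3 of these had groups that did not overlap, and it did not pass the test (log2 fold change -0.28, limma adjusted p = 0.533). The short-chain Col8a2, a collagen of the basement membrane under the corneal endothelium, averaged 1.27 and 1.43 FPKM.

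The other 20 collagens lay under 1 FPKM on average, and whole reads could be recovered for each from the steps between values, accepting a rounding error of 0.1 read. None of them was called in a fit without the filter. Col5a3, the collagen V chain that is least abundant in most tissues, measured 0.366, 0.272, 0.247 and 0.424 FPKM in wild type 1 to 4 and 0.633, 0.647 and 0.78 FPKM in deletion 1, 3 and 4. That is 47 to 74 reads in the wild type and 128 to 136 reads in the deletion, without overlap, and limma without the filter gave an adjusted p of 0.0785. Col20a1, a FACIT chain, measured 0.61, 0.42, 0.467 and 0.477 FPKM and, in the deletion, 1.0, 1.12 and 0.803 FPKM, from 57 to 80 and 91 to 152 reads (adjusted p = 0.0932). Col6a4 was higher in the deletion on only 10 to 11 reads against 3 to 7, and Col24a1 lower on 46 to 53 reads against 65 to 89. Together these are 3 collagens below the filter with higher and 1 with lower values in all deletion libraries, where 3.94% and 3.45% of all genes below the filter have such groups. Col28a1, Col4a3, Col6a5 and Col6a6 had at most 8 reads in any library, so a difference in them was not detectable at this depth. Col4a4, Col4a6, Col7a1, Col8a1, Col10a1, Col11a2, Col13a1, Col14a1, Col15a1, Col16a1, Col17a1 and Col19a1 were present below the filter with overlapping groups.

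Summed by class, fibrillar collagens went from 214 to 248 FPKM in the wild type to 161 to 185 FPKM in the deletion. Their share of all collagen FPKM was 64.3% to 65.4% in the wild type and 57.9% to 58.7% in the deletion. The basement membrane share was 10.8% to 11.4% and 14.7% to 15.5%, and the multiplexin share, nearly all Col18a1, 5.77% to 6.44% and 9.17% to 10.7%. The proportions of these 3 classes did not overlap between groups, though the summed basement membrane level did, at 37.6 to 42.5 FPKM against 42.1 to 48.7 FPKM. The transmembrane share was also lower without overlap (2.96% to 3.06% and 2.63% to 2.9%). So was that of Col26a1 with Col28a1 (7.53% to 8.38% and 5.71% to 7.27%). Shares of 1 total are not independent of each other. Summed over all 44 genes, collagen FPKM was 275 to 317 in the deletion. These sums are dominated by the highest genes.

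**Figure D4:**
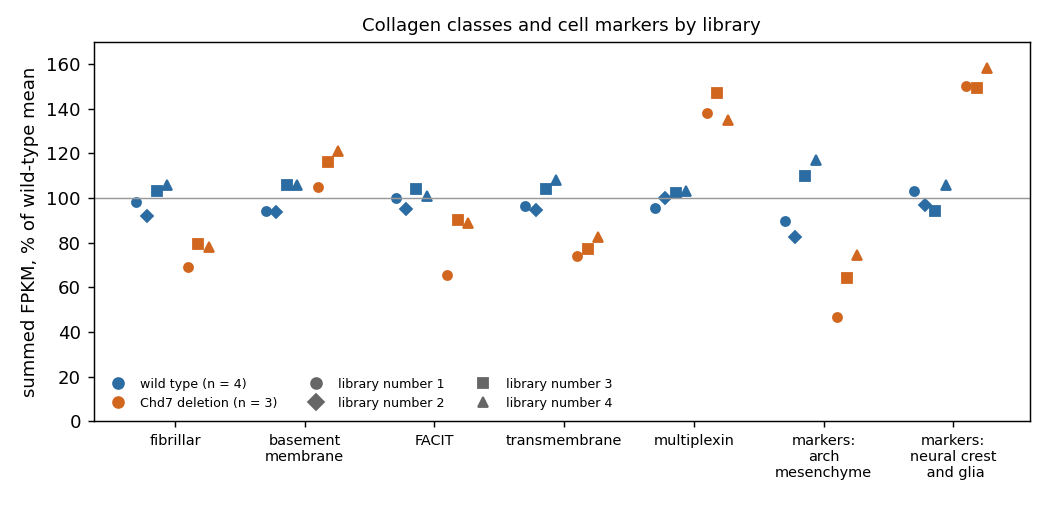
Summed FPKM of 5 collagen classes and 2 marker lists in each library, as a percent of the mean of the 4 wild-type libraries, which the line at 100 marks. Fibrillar collagens and arch mesenchyme markers are lower in the 3 deletion libraries, and multiplexins and glial markers are higher.

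The split of the libraries by number also touched the collagens. In the wild type, libraries 3 and 4 were both above libraries 1 and 2 for 12 of 24 collagens and both below for 4, where 56.1% and 12.9% of all genes tested did so. Col3a1, Col5a1, Col5a2, Col4a1, Col4a2 and Col26a1 were among the 12, and the arch mesenchyme markers were higher in the same libraries, at 110% and 117% of the wild-type mean in wild type 3 and 4, and 89.6% and 82.5% in wild type 1 and 2. Neuronal markers ran the other way, with sums of 283, 240, 208 and 153 FPKM in wild type 1 to 4. The share of Rn45s, a ribosomal RNA precursor, was 7.15%, 6.56%, 4.36% and 4.11% in wild type 1 to 4. In deletion 1, 3 and 4 it was 8.68%, 5.03% and 4.84%. The part of these in the split was not tested. The log2 difference of Col3a1 between deletion and wild type was -1.33 within the libraries numbered 1 and 2. Within those numbered 3 and 4 it was -1.23. For Col1a1 these were -0.70 and -0.63, and for Col18a1 0.48 and 0.44. The changes of the 3 called genes were therefore as large within each number set, of which the first holds a single deletion library. For Col9a1 the within-set differences were -0.88 and -0.49, and for Col2a1 -0.30 and -0.04.

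Some genes that make and crosslink collagen were called lower in models that account for library number, and not in the plain fit. Of 36 genes in a list chosen for this step, 25 were tested. None passed the plain fit with limma, where 3 had an unadjusted p under 0.05, as had 815 of all 11039 genes. With the block 6 passed, all lower, against 2.27% of all genes. With the library set as a covariate 7 passed, all lower, P4hb among them (limma adjusted p = 0.0462). That setting called 551 of all 11039 genes lower. The median log2 fold change of the 25 was -0.11 without and -0.15 with the block, against -0.04 and -0.07 for all genes tested. In both fits 23 of 25 were below 0, where 7225 of 11039 genes were in the plain fit and 8017 with the block. The most abundant members were Serpinh1, the collagen chaperone, P4hb, a subunit of prolyl hydroxylase, and Ppib, a prolyl isomerase. Serpinh1 was at 121 ± 13.1 FPKM in the wild type (SD, n = 4) and 118 ± 14.2 FPKM in the deletion (SD, n = 3). P4hb was at 104 ± 11.2 and 92.3 ± 11.8 FPKM, and Ppib at 73.8 ± 10.2 and 70.3 ± 18.0 FPKM (SD, n = 4 and n = 3). None of these passed in the plain fit or with the block.

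The 6 synthesis genes called with the block act at different steps. Pcolce, which speeds the trimming of procollagen, measured 17.7, 16.6, 19.8 and 24.6 FPKM in wild type 1 to 4 and 9.98, 15.2 and 16.1 FPKM in deletion 1, 3 and 4 (block log2 fold change -0.57, adjusted p = 0.024). Sec24d, a coat protein that carries procollagen from the endoplasmic reticulum, measured 7.55, 7.29, 8.28 and 9.68 FPKM and 5.21, 6.49 and 6.66 FPKM (-0.42, adjusted p = 0.0221). Both genes had groups that did not overlap, as did P3h3, of the prolyl 3-hydroxylase family, with means of 6.46 and 5.21 FPKM (block adjusted p = 0.0445). P4ha2, a catalytic subunit of prolyl hydroxylase, had means of 4.19 and 3.08 FPKM (block adjusted p = 0.0416). Plod2, a lysyl hydroxylase that prepares crosslinks, averaged 12.5 and 10.3 FPKM (block adjusted p = 0.0245), and Loxl2, a crosslinking oxidase, 18.1 and 14.9 FPKM (block adjusted p = 0.0293). Without the block, the adjusted p of the 6 genes was between 0.242 and 0.879. Across 18 or 19 alternatives each, their adjusted p ranged from 0.00652 to 1. The libraries numbered 3 and 4 alone called none of the 25, and neither did median-ratio scaling or scaling to equal totals.

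Among collagen receptors, Ddr2 and Mrc2 had lower values in each deletion library and were called in several settings other than the plain fit. Ddr2, a receptor tyrosine kinase for fibrillar collagens, measured 11.1, 9.68, 11.9 and 11.6 FPKM in wild type 1 to 4 and 5.64, 7.57 and 8.0 FPKM in deletion 1, 3 and 4. The groups did not overlap, and the log2 fold change was -0.65 with the block (limma adjusted p = 0.0167) and -0.59 without it (limma adjusted p = 0.0857), with 0.00195 to 0.302 over 19 alternatives. Mrc2, a receptor that takes up collagen for breakdown, measured 13.7, 14.3, 16.5 and 18.2 FPKM in wild type 1 to 4 and 10.2, 12.1 and 11.9 FPKM in deletion 1, 3 and 4. It too did not overlap, at -0.46 with the block (limma adjusted p = 0.0169) and -0.42 without it (limma adjusted p = 0.208), with 0.00194 to 0.573 over 19 alternatives. These 2 of 6 tested receptors were called with the block, against 2.27% of all genes called lower, and with the libraries numbered 3 and 4 alone, against 0.77%. Both were also called with median-ratio scaling (adjusted p = 0.0166 for Ddr2 and 0.0404 for Mrc2), and Ddr2 with library weights (0.0227) and with equal totals (0.0194). None was called in the plain fit, where 2 had an unadjusted p under 0.05, as had 815 of all 11039 genes. Itgb1, the integrin beta chain shared by collagen receptors, was at 60.4 ± 5.85 FPKM in the wild type (SD, n = 4) and 62.1 ± 6.75 FPKM in the deletion (SD, n = 3). The integrin alpha chains that bind collagen, Itga1, Itga2, Itga10 and Itga11, all lay below the filter, with a highest value of 1.03 FPKM in any library.

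Among genes of collagen breakdown, 8 of 13 listed were tested. Only Reck, a membrane-bound inhibitor of matrix proteases, passed with the block, at 9.12 ± 1.19 FPKM in the wild type (SD, n = 4) and 7.27 ± 1.06 FPKM in the deletion (SD, n = 3; log2 fold change -0.34, limma adjusted p = 0.0289, and 0.0122 to 1 over 19 alternatives). With the block 2.27% of all genes were called lower. None of the 8 passed the plain fit, where 5 had an unadjusted p under 0.05, as had 815 of all 11039 genes. Mmp2, a gelatinase, was the highest at 29.2 ± 3.83 and 25.4 ± 4.9 FPKM, followed by Timp3, an inhibitor of these proteases, at 19.7 ± 1.35 and 23.8 ± 0.893 FPKM, and by Mmp14, a membrane-bound collagenase, at 19.3 ± 2.7 and 18.0 ± 2.29 FPKM (SD, n = 4 and n = 3). Timp3 had groups that did not overlap and did not pass with the block (limma adjusted p = 0.0701), though it was called higher with the library set as a covariate (limma adjusted p = 0.0244, in a range of 0.0244 to 0.741 across settings). Timp2 and Mmp16 were lower without overlap and did not pass with the block (limma adjusted p = 0.0919 and 0.0912). Of all genes tested, 6.17% were lower and 3% higher without overlap. Across settings the adjusted p of Mmp16 ranged from 0.0461 to 0.794. Timp1, another inhibitor, had a log2 fold change of -0.37 with overlapping groups (limma adjusted p = 0.561 without the block). The median log2 fold change of the 8 genes was -0.22 without and -0.24 with the block. That of all genes tested was -0.04 and -0.07. The list pools proteases with their inhibitors, so its median does not give a direction of collagen breakdown.

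**Figure D5:**
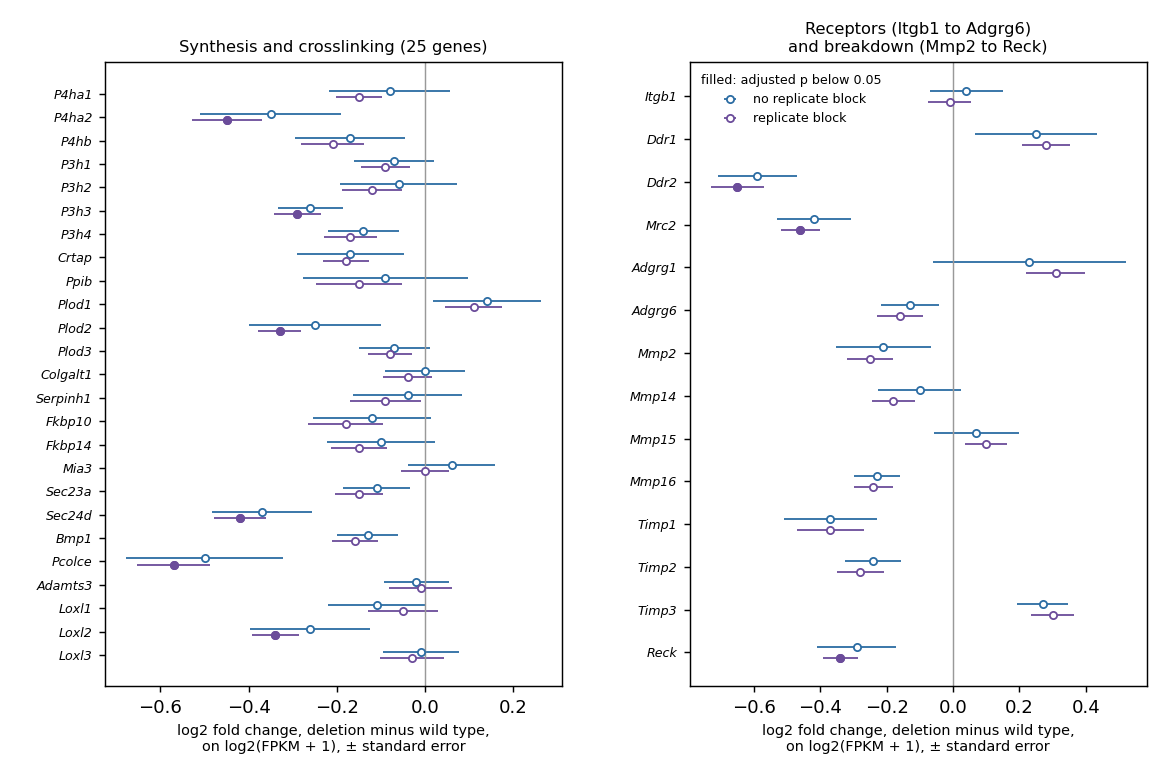
Deletion minus wild type as log2 fold change of FPKM + 1, with its standard error, for the tested genes for collagen synthesis and crosslinking (25), receptors (6) and breakdown (8), from limma without and with the replicate block. Filled points have an adjusted p under 0.05, which none reaches without the block.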

How the data were processed

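RNA of GFP-positive arch cells was sequenced from 4 wild-type and 3 Chd7 deletion libraries, with ribosomal RNA depletion and a strand-specific kit per the labels' protocols. The authors deposited 1 table of FPKM values. Per the submitters' processing notes, the build was mm10 and the tools included Partek, SAMtools, HISAT2, Trimmomatic 0.38 and bcl2fastq 2.18.0.12, whose roles are not listed. For annotation, filters and strand use in counting, nothing is given in the sources used here. FPKM divides by library total, so abundant transcripts lower all other values, and genes overlapping on the other strand may share reads.

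Of 19169 rows, 25 held dates in place of symbols (0.153% to 0.166% of FPKM) and were left out. The test was limma 3.58.1 (R 4.3.3) on log2(FPKM + 1), for genes averaging 1 FPKM or more. It was 2-sided with an intensity trend, Benjamini-Hochberg over 11039 genes and a threshold of 0.05. Only the plain fit was run on simulated data, whose noise was independent between libraries and held no effect of library number. Folds are ratios of mean FPKM. Positions are from GENCODE M21. Tables were made with pandas 2.3.3 and numpy 2.4.6 in Python 3.11.15, figures with matplotlib 3.10.9. Same-numbered libraries deviated together from their group means (correlations 0.704, 0.399 and 0.775 for numbers 1, 3 and 4, from the data). The labels do not explain the numbers. Unlike numbers within a set also did so, at 0.592 (wild type 2, deletion 1), 0.377 (wild type 3, deletion 4) and 0.25 (wild type 4, deletion 3). Between the sets the correlations were -0.716 to -0.305. These values do not separate number from set. A fit with the number as a block is given where it changes a call. Collagens past the threshold in either fit, and the 3 highest of each class with at least 5 FPKM, are given by library, others by range or count. Members, classes and lists were chosen with earlier results of these data known. Alternatives were the pseudocount, filter, scaling, weights, trend, block and each library left out. A library-set covariate was added after seeing the data. Replicates 1, 3 and 4 alone and the fit without wild type 2 are the same fit, counted under both names among the alternatives. A marker gene is not reported here and was left out of its list.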

Additional observations from a re-analysis of the deposited data

How the results depend on the processing

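Chd7 was lower under each alternative run. Over all genes, 98 were called, 53 lower and 45 higher. The replicate block called 366, library weights 213, the library-set covariate 720 and median-ratio scaling 156 (75 lower and 81 higher). No filter called 62 and a filter at 5 FPKM 32. Leaving out 1 library gave 4 to 72, and replicates 1, 3 and 4 alone, which is the fit without wild type 2, gave 35. Of the collagens, 3 were called, with the block or the libraries numbered 3 and 4 alone 6, with the set covariate 7, with median-ratio scaling 5, and with 1 library left out 0 to 3. The count was 0 without deletion 4 or wild type 3 and 1 without deletion 3. Synthesis genes went from 0 to 6 with the block and 7 with the set covariate, and 0 to 0 with 1 library left out. Receptors went from 0 to 2 with the block, the set covariate, replicates 3 and 4 alone or median-ratio scaling, and to 1 with weights or equal totals. Breakdown genes went from 0 to 1 with the block and 3 with the set covariate. The block also brought the markers Prrx1, Twist1, Pdgfra and Hapln1 to a lower call, and changed no other call among the genes named. Signs turned only for values that were not called. Col1a2 was 0.02 with median-ratio scaling, 0.05 with equal totals and 0.02 without deletion 4 (-0.07 to 0.02 with 1 library left out). Serpinh1 was 0.01 with weights or median-ratio scaling, 0.03 with equal totals, 0.06 without deletion 1 and 0.02 without wild type 4 (-0.11 to 0.06). Ppib was 0.04 with weights and 0.13 without deletion 1 (-0.23 to 0.13). Itgb1 was -0.00 with the set covariate, -0.01 with the block or without wild type 2, and -0.02 without deletion 3 (-0.02 to 0.13), and Mmp14 was 0.00 without deletion 1 (-0.18 to 0.00). The cause of these shifts was not tested. Low collagens are limited by depth.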
